A study of Mus musculus with 2 samples.

Results

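The D cyclins and the cyclin-dependent kinases of G1 were examined in DN3 thymocytes with and without functional Miz-1. The set holds 6 genes, Ccnd1, Ccnd2, Ccnd3, Cdk2, Cdk4 and Cdk6, which were chosen by their gene symbol in the platform annotation, out of 18193 genes with a named probe set. All 6 are on the array, with 21 probe sets in all, and each probe set was read separately. Gene expression was measured on 2 oligonucleotide arrays, both with RNA of C57BL/6 mice. The first carries RNA of thymocytes labelled as Miz1 knockout, from mice with a Miz1-delta-POZ allele of the zinc finger factor Miz-1 (gene Zbtb17) that lacks its POZ interaction domain, and the second RNA of thymocytes labelled wt (wild type). Both were sorted as lineage-negative, CD44-negative and CD25-positive cells, the DN3 stage, at which precursors pass beta-selection with a pre-T cell receptor. The sources used here do not give the age or number of the animals, or whether a Cre deleted the allele. The question put to the arrays was what loss of Miz-1 activity does to gene expression at this stage.

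D cyclins are made in response to growth signals and bind Cdk4 or Cdk6. The complexes phosphorylate the retinoblastoma protein and its relatives, which frees E2F factors to turn on cyclin E and the genes of S phase, and cyclin E and cyclin A then act through Cdk2. Lymphocytes mainly use cyclin D2 and cyclin D3, and cyclin D3 and Cdk6 are known to be needed for the full expansion of immature thymocytes after beta-selection.

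With 1 array for each genotype no difference could be tested, and each value stands without an error between animals. A bulk signal also cannot tell fewer expressing cells from less RNA per cell. Signals below 394, the median of all values on both arrays and here called the floor, were raised to 394 before a ratio was formed, and a difference is counted when the floored ratio is at least 2-fold and the brighter array is above the floor. The only repeated measurement is that of several probe sets for 1 gene, whose log2 ratios had a typical SD of 0.57 (root mean square, 4514 genes). The markers of the sorted cells were bright on both arrays: all 9 DN3 markers with a probe set, among them Ptcra (11518 on the knockout array and 7513 on the wild-type array) and Rag1 (34741 and 45865), lay above the floor. Of these 9, 3 passed 2-fold upward, Dtx1 (5.09-fold), Il2ra (4.61-fold), which encodes the CD25 of the sort, and Cd3g (2.17-fold), and the median log2 ratio was 0.62. Of the markers of other cells, 3 of 9 myeloid, 7 of 12 stromal and endothelial, 4 of 5 B cell, 2 of 4 early progenitor, 1 of 5 mature T cell and 1 of 3 erythroid genes were above the floor on the knockout array, against 3, 3, 3, 3, 3 and 1 on the wild-type array. Of the 7 stromal genes, Col1a2 (395), Pdgfra (419) and Cdh5 (420) lay just above the floor of 394. Of all probe sets, 51.6% were above it on the knockout array and 48.4% on the wild-type array. Summed signals on the knockout array against the wild-type array were 16487 against 6855 for the stromal list (mostly Pdgfrb, 8455 against 1840), 5568 against 2843 for the myeloid and 15582 against 30590 for the B cell list (mostly Ighm, whose probe sets gave log2 ratios from -1.31 to 0.54). The median log2 ratio was 1.19 over the 3 measured myeloid genes, with Lyz2 (2646 against 736) and Csf1r (1204 against 529) past 2-fold upward. The third, Adgre1, was nearly equal (482 against 498), and the 3 measured Csf1r probe sets ranged from 0.05 to 1.37. The median was 0.81 over the 4 measured stromal genes, among them Epcam (4947 against 2604) and Krt5 (756 against 863, log2 ratio -0.19). The 2 measured Epcam probe sets gave -0.20 and 0.93. Over the 4 measured B cell genes the median was 0.66, and Cd79a, Cd79b and Ms4a1 read higher by less than 2-fold (0.78, 0.90 and 0.54). The sums were 1684 against 1834 for progenitor, 930 against 1776 for mature T cell and 881 against 853 for erythroid markers, and members under the floor on both arrays included Itgam, Pax5, Pecam1, Krt8 and Cd4. The animals also differed in sex, since Xist, a transcript of the inactive X chromosome, read 55300 on the knockout array and 423 on the wild-type array, and the Y-linked Kdm5d 36.7 and 1782. Sex and genotype cannot be told apart in any value below, and the part of other cells was not tested. Zbtb17 read 1361 on the knockout array and 3042 on the wild-type array by its brighter probe set and 609.8 and 47.6 by the other, and no source used here places these probes relative to the deleted part, so the gene does not check the labels.

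The 6 genes did not differ in a single direction. Ccnd2 was higher in the knockout, Cdk4 was lower by less than 2-fold, and Cdk6 and Cdk2 differed little by their brightest probe sets. Ccnd3 gave opposite directions by different probe sets, and Ccnd1 was dim, with an array under the floor by each probe set. Of the 21 probe sets, 4 passed 2-fold upward, that is higher in the knockout (3 of Ccnd2 and 1 of Ccnd3), where 3.97% of all 45037 probe sets did. A single one, of Ccnd1, was at least 2-fold lower, where 2.64% of all were. As shares of the 21 these counts are 19.0% and 4.76%. A probe set with a mean under the floor cannot pass the rule, and 18 of the 21 had a mean above it against 48.6% of all probe sets. Of the 21897 probe sets whose mean exceeded the floor, 8.17% passed 2-fold upward and 5.43% downward. Both arrays were above the floor for 16 of the 21 probe sets, the knockout alone for 3, the wild type alone for 1, and neither for 1.

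**Figure D1:**
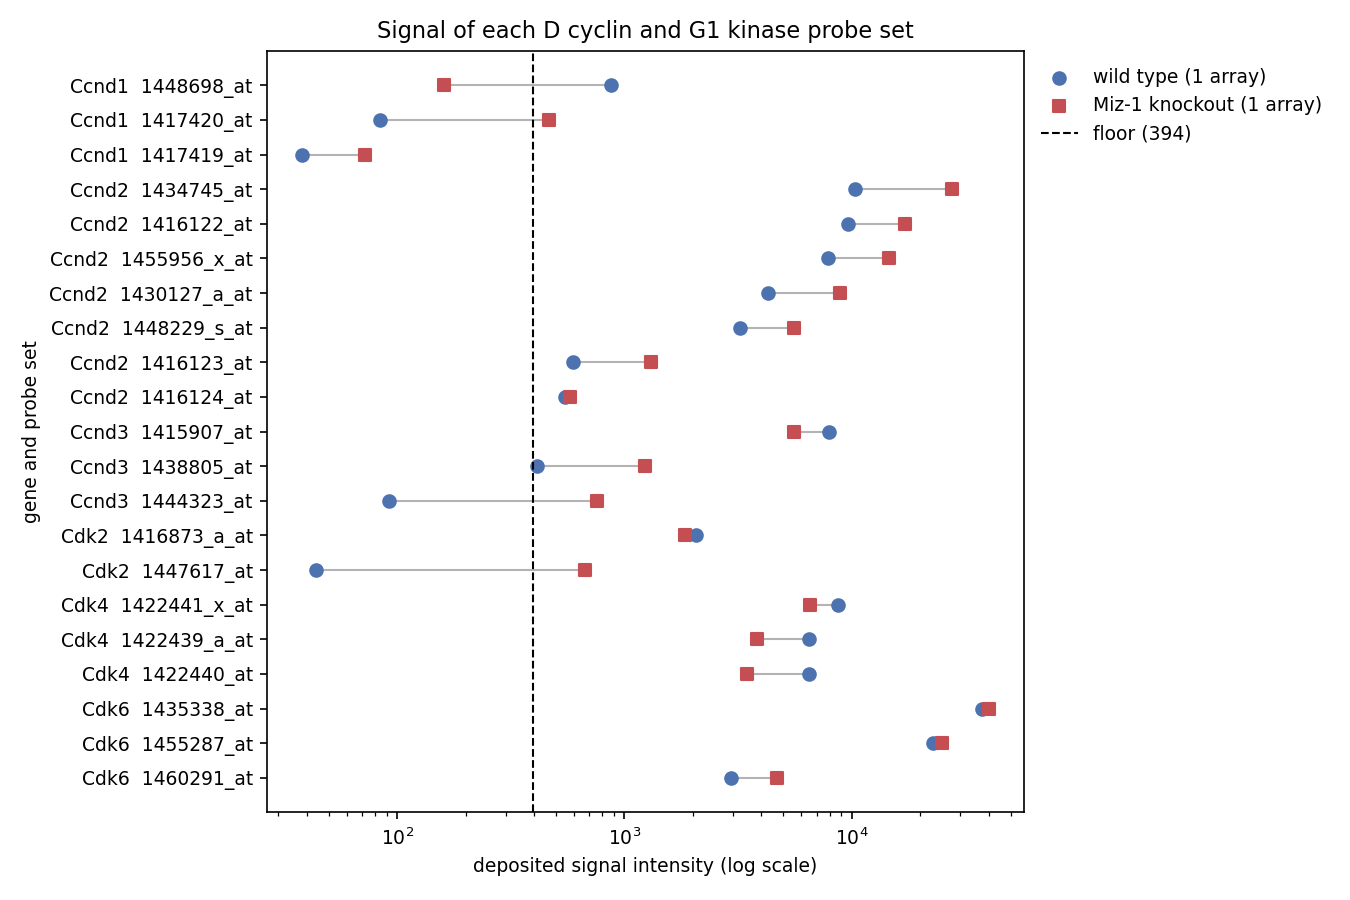
Deposited signal intensity (log scale) of the 21 probe sets, 1 row each, grouped by gene and ordered by mean signal; squares are the knockout array, circles the wild-type array, and the dashed line is the floor of 394. The squares of all 7 Ccnd2 rows lie right of the circles and those of all 3 Cdk4 rows left of them, while 2 of the 3 Ccnd1 rows, the dimmest Ccnd3 row and the dimmer Cdk2 row reach across the floor.

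Ccnd2, the D cyclin that growth and cytokine signals induce in lymphocytes, read higher on the knockout array by each of its 7 probe sets, 3 of them past 2-fold. Its brightest probe set (1434745_at) read 27666 on the knockout array and 10377 on the wild-type array, a 2.67-fold difference and a log2 ratio of 1.41. Of the 21897 probe sets above the floor, 2.5% had a log2 ratio at least as high. The other bright ones pointed the same way. Probe set 1416122_at read 17162 on the knockout array and 9633 on the wild-type array (log2 ratio 0.83), and 1455956_x_at read 14526 and 7872 (0.88). Probe set 1430127_a_at read 8908 and 4292 (log2 ratio 1.05), and 1448229_s_at read 5575 and 3237 (0.78). Thus each of the 5 probe sets brighter than the others was higher in the knockout, by 1.72-fold to 2.67-fold. The dimmer pair differed from each other: 1416123_at read 1303 and 591 (log2 ratio 1.14), whereas 1416124_at read 574 and 550 (0.06), both arrays being near the floor.

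Over its 7 probe sets Ccnd2 had a mean log2 ratio of 0.88 with an SD of 0.42 (n = 7 probe sets of 1 pair of arrays, which are not replicates). All 7 log2 ratios were above 0 in the deposited scaling and after median centring, and 6 of 7 were after quantile or loess normalization, where the dimmest, 1416124_at, gave -0.08. Of 26 genes with exactly 7 probe sets above the floor, 6 (Ccnd2 among them) had all ratios above 0 and 2 had all below 0. The _x_at, _s_at and _a_at endings mark probe sets whose probes can match further transcripts; the 3 Ccnd2 probe sets with such an ending had log2 ratios of 0.78 to 1.05, inside the range of the 4 without one. Normalization that removes the trend of the ratios with brightness gave the brightest probe set a log2 ratio of 1.73 (quantile) or 1.72 (loess), and under either one 5 rather than 3 Ccnd2 probe sets passed 2-fold upward.

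Ccnd3, the D cyclin known to be required for the expansion of immature thymocytes, was read by 3 probe sets that did not point one way. The brightest, 1415907_at, is annotated to the RefSeq mRNA and read 5586 on the knockout array and 7919 on the wild-type array, a log2 ratio of -0.50, which is 1.42-fold lower and within the SD of 0.57 between probe sets of a gene. The second, 1438805_at, read 1226 and 414, a log2 ratio of 1.57 or 2.96-fold higher, with the wild-type signal just above the floor. The dimmest, 1444323_at, read 758 and 92.3, at least 1.92-fold higher against the floor. The bright probe set was therefore lower in the knockout and both dim ones higher, and the SD among the 3 log2 ratios was 1.06, wider than the typical SD within a gene. Both dim probe sets are annotated to GenBank records other than the RefSeq mRNA. The bright probe set kept its negative log2 ratio after quantile (-0.39) and loess normalization (-0.36), and the second kept its positive one (1.43 and 1.44).

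Ccnd1, the D cyclin used mainly outside the lymphoid lineage, was dim, and each of its probe sets was under the floor on at least 1 array. Its brightest probe set, 1448698_at, read 160.8 on the knockout array and 875.5 on the wild-type array, at least 2.22-fold lower in the knockout (log2 ratio -1.15). With the floor at the 60th percentile of all values (550) this was -0.67, no longer past 2-fold. Probe set 1417420_at went the other way, with 463.9 on the knockout array and 83.8 on the wild-type array, a floored log2 ratio of 0.24. The third, 1417419_at, was under the floor on both arrays, at 71.9 and 38.1. Each array was thus above the floor by a different Ccnd1 probe set, and the 3 probe sets do not give the gene a direction. The summed signals of stromal and myeloid markers, given above, were higher on the knockout array, and the part of such cells in the Ccnd1 signals was not tested.

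**Figure D2:**
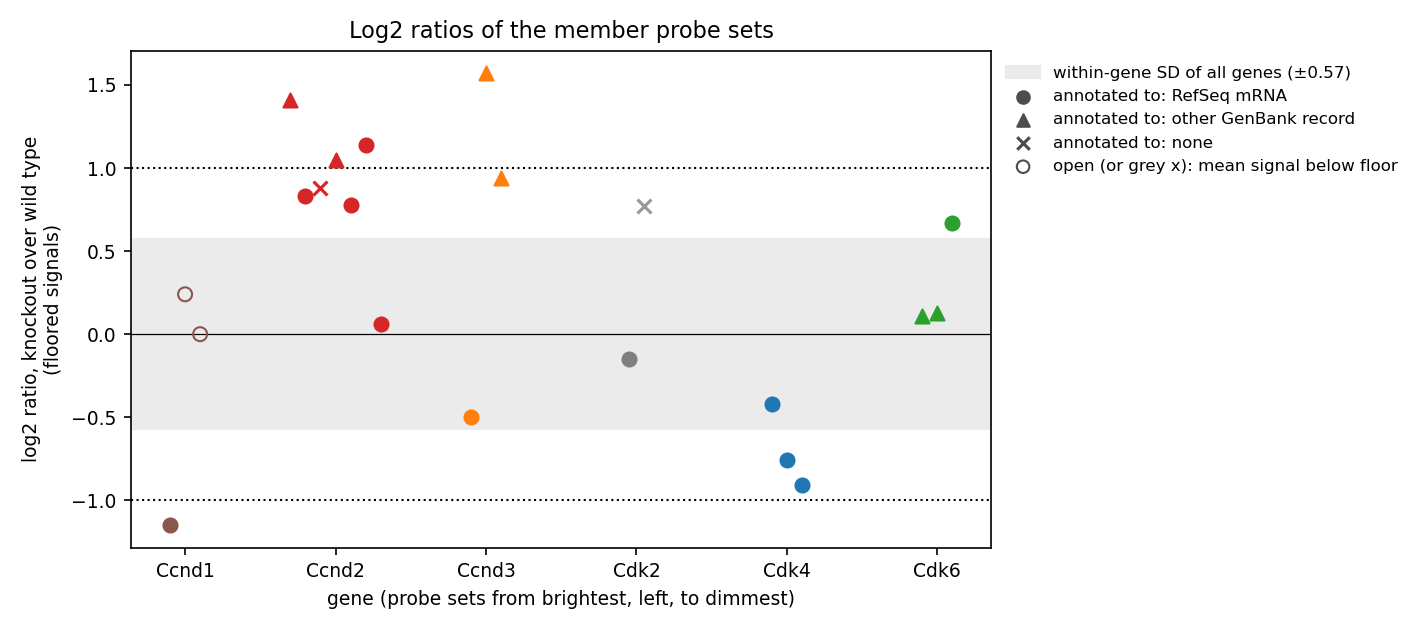
Log2 ratio of floored signals, knockout over wild type, for each probe set of the 6 genes; filled symbols have a mean signal above the floor, the shape shows the annotated record, the grey band is the within-gene SD of 0.57 and the dotted lines mark 2-fold. The Ccnd2 points lie between 0.06 and 1.41 and the Cdk4 points between -0.91 and -0.42, while Ccnd3 spans -0.50 to 1.57.

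Cdk4, a catalytic partner of the D cyclins, was lower in the knockout by all 3 probe sets, and by less than 2-fold. The probe set 1422441_x_at, the brightest, read 6534 on the knockout array and 8737 on the wild-type array (log2 ratio -0.42). The next, 1422439_a_at, read 3834 and 6510 (-0.76), and 1422440_at read 3449 and 6473 (-0.91). The smallest difference came from the probe set whose ending marks possible cross-hybridisation, and the largest, 1.88-fold, from the one without a shared-sequence ending. The mean log2 ratio was -0.70 with an SD of 0.25 (n = 3 probe sets), and all 3 were below 0 in the deposited scaling and after median centring, quantile and loess normalization, with means of -0.74, -0.61 and -0.58 under these 3. Of 1065 genes with exactly 3 probe sets above the floor, 19.2% had all 3 ratios below 0 and 19.6% all 3 above, so this agreement in sign is common on these arrays.

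Cdk6, the other catalytic partner of the D cyclins, was bright on both arrays and close to equal by its brightest probe sets. Probe set 1435338_at read 40280 on the knockout array and 37322 on the wild-type array (log2 ratio 0.11), and 1455287_at read 24864 and 22743 (0.13). Both are annotated to a GenBank record other than a RefSeq mRNA and differed between the arrays by under 1.10-fold. The dimmer 1460291_at, annotated to the RefSeq mRNA, read 4686 and 2949 (log2 ratio 0.67). All 3 log2 ratios were above 0 under each scaling, but their size depended on it: the mean was 0.30 in the deposited values, 0.26 after median centring and 0.59 after either quantile or loess normalization, which remove a trend of the ratio with brightness. The 569 probe sets with a mean above 20000 had a median log2 ratio of -0.53, and the brightest Cdk6 probe sets are among them.

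The mean log2 ratio of Cdk6 lay above that of Cdk4 in every scaling run (0.30 against -0.70 as deposited). The probe sets ranged from 0.11 to 0.67 for Cdk6 and from -0.91 to -0.42 for Cdk4. Ratios all of 1 sign are common among genes with 3 measured probe sets (19.6% all above 0 and 19.2% all below). The comparison sets unequal differences side by side on 1 pair of arrays and was not tested over animals. Signals of different probe sets are not compared with each other as levels, because probes differ in brightness for the same amount of RNA.

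Cdk2, the kinase that acts with cyclins E and A, was nearly equal on both arrays by the probe set annotated to its RefSeq mRNA. Probe set 1416873_a_at read 1854 on the knockout array and 2056 on the wild-type array, a log2 ratio of -0.15. The second, 1447617_at, for which the annotation gives no record, read 673.2 and 44.2. Its mean signal was under the floor, and against the floor the knockout was at least 1.71-fold higher. This is the same arrangement as for the brightest and dimmest Ccnd3 probe sets: a bright probe set slightly lower in the knockout, and a dim one above the floor in the knockout alone.

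The member probe sets were also counted by the record they are annotated to. Of 13 probe sets annotated to a RefSeq mRNA, 1 passed 2-fold upward and 1 downward, whereas 3 of 6 annotated to another GenBank record were at least 2-fold higher, and neither of the 2 with no record was counted. The 3 belong to Ccnd2 and Ccnd3 alone, and no share of all probe sets by annotated record is set beside these counts. These probe sets share genes, so the counts are a description of the annotation and not of independent genes.

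**Figure D3:**
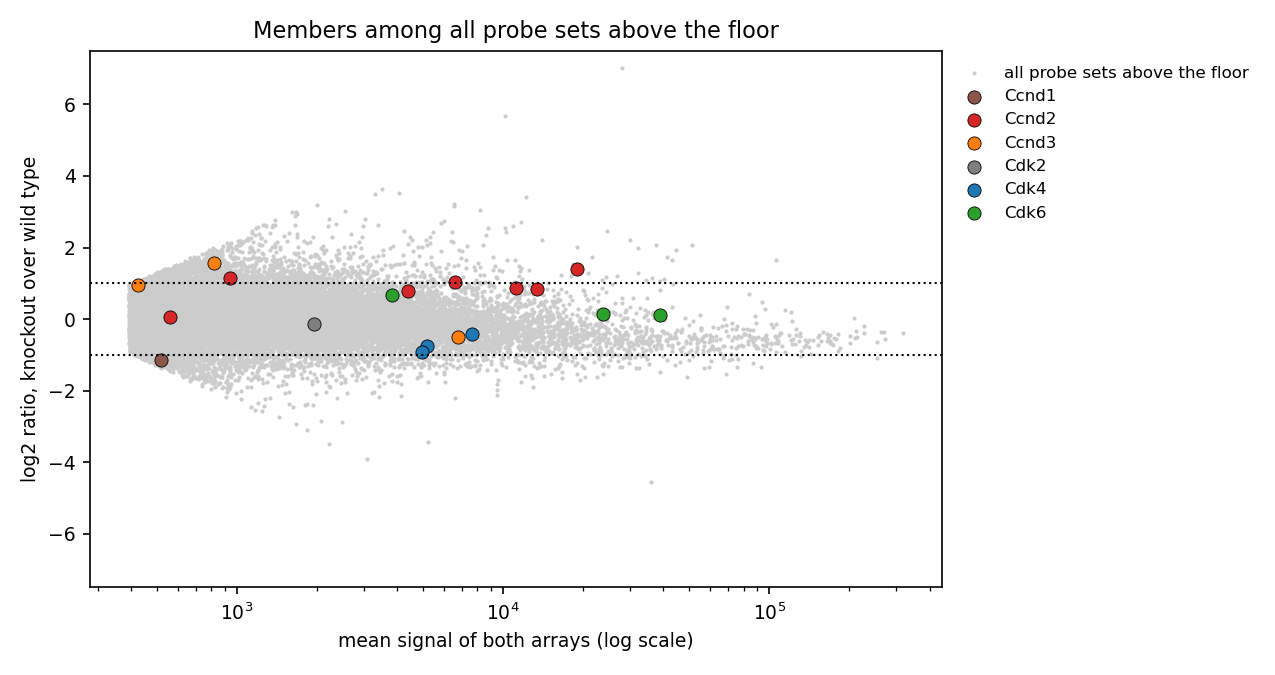
Log2 ratio of floored signals, knockout over wild type, against the mean signal of both arrays (log scale) for the 21897 probe sets whose mean exceeds the floor (grey) and the 18 member probe sets among them (coloured by gene); dotted lines mark 2-fold. The brightest Ccnd2 probe set lies above most others of its brightness, and most very bright probe sets lie below 0 while the Cdk6 points lie just above. The dim Ccnd1 and Ccnd3 points lie toward the dim end of the range.

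Promoter sequence was available from RefSeq (GRCm38.p6) for 4 of the 6 genes, Ccnd3 (2 start sites), Cdk2, Cdk4 and Cdk6, as windows from 250 bases before to 50 bases after the start. Windows of Ccnd1 and Ccnd2 were not in the table used here. The windows of the D cyclin partners Cdk4 and Cdk6 are shown because these kinases had log2 ratios of opposite sign and because Cdk4 is a known target of MYC, the partner of Miz-1, through E-boxes. Capitals mark the E-box CACGTG, which reads the same on both strands. The Cdk4 window is chr10:127063285-127063584 and the Cdk6 window chr5:3343643-3343942, both on the plus strand.
Cdk4: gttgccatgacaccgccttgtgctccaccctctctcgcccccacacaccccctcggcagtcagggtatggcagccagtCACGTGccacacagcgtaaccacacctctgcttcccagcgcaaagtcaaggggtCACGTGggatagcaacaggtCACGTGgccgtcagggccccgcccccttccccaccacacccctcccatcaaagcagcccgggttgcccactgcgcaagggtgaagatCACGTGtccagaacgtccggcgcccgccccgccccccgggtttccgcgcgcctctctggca
Cdk6: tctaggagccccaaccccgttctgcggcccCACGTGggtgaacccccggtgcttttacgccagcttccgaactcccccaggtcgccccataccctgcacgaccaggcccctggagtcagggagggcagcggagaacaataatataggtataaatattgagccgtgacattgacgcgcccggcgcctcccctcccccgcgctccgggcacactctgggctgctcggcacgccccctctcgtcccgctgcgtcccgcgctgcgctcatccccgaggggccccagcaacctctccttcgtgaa
The Cdk4 window holds 4 E-boxes, which begin 172, 118, 98 and 11 bases before the start, and the Cdk6 window 1, which begins 220 bases before it. The Cdk2 window and both Ccnd3 windows hold none. Of all 32851 promoter windows in the table, 7.15% hold at least 1 and 8 windows (0.0244%) hold at least 4. A match is a description of the letters and does not show that a factor binds.

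Other motifs were searched on both strands in the same 5 windows. The E2F-type motif TTCCCGC was found in the Cdk2 window (2 matches) and in no other of the 5, against 4.60% of all windows, and the E2F-type motif TTGGCGC in none, against 2.45% of all. The RBPJ-type motif TGGGAA was found once in the Cdk4 window, against 25.6% of all windows. The GC box GGGCGG was found in the windows of Cdk2 (6 matches), Cdk4 (3) and Ccnd3 (2 in each), not in that of Cdk6, against 35.7% of all. Matches of different motifs were counted whether or not they overlap. Myc itself read 10639 on the knockout array and 13887 on the wild-type array (log2 ratio -0.38), and Mycn 2571 and 718 (1.84). By the number of E-boxes in the window, the median log2 ratio was 0.0 for 7732 genes without one, -0.04 for 896 genes with 1, 0.11 for 108 genes with 2 or 3, and -0.03 for the 3 genes with at least 4, of which Cdk4 is 1.

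The inhibitors that act on these kinases differed in both directions. Of 7 listed inhibitor genes, 4 had their brightest probe set above the floor; 1 of these passed 2-fold upward and 1 downward, and the median log2 ratio was -0.04. Over all 10770 genes so measured, 7.23% passed 2-fold upward and 5.65% downward, and the median was 0.0. Cdkn1a (p21), which binds cyclin-kinase complexes and inhibits Cdk2, read 8627 on the knockout array and 1987 on the wild-type array, 4.34-fold higher. Cdkn2c (p18), which binds Cdk4 and Cdk6 in place of a D cyclin, read 1814 and 5066, 2.79-fold lower. Cdkn1b (p27) read 1619 and 1496 and Cdkn2d (p19) 2013 and 2305. The brightest probe sets of Cdkn1c, Cdkn2a and Cdkn2b were under the floor on both arrays.

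Downstream of the D cyclins, the genes past 2-fold were all lower in the knockout, 2 of the cyclin list and 6 of the E2F-responsive list. Among 5 measured genes of the cyclin E, cyclin A and Cdc25a list, 2 passed 2-fold downward and 0 upward; their median log2 ratio was -0.87. Ccna2 read 4021 on the knockout array and 8242 on the wild-type array, 2.05-fold lower, and Ccne1 1070 and 2639, 2.46-fold lower, although its second probe set above the floor gave 0.57 on the log2 scale. Cdc25a, the phosphatase that activates Cdk2, read 2961 and 5402 (log2 ratio -0.87, and -0.11 by its second measured probe set), Ccne2 1077 and 1471 (-0.45) and Ccna1 522.7 and 495.5 (0.08). Of 19 E2F-responsive genes of S phase, 18 had a log2 ratio below 0, 6 of them past 2-fold, and 0 passed 2-fold upward. The list median was -0.76 as deposited, -0.51 after quantile and -0.52 after loess normalization. Over all 10770 measured genes these medians were 0.0, -0.03 and -0.02. Cdt1, Mcm5, Mcm7 and Pcna are among the very bright probe sets, whose median was -0.53 as deposited. Cdt1 (21709 against 43956, log2 ratio -1.02) is 1 of the 6 past 2-fold. Dut (4496 against 14682) and Tk1 (1976 against 5692), which serve the supply of thymidine nucleotides, had the lowest ratios of the list.

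In the retinoblastoma and E2F family, 13 of 13 genes were above the floor, 1 past 2-fold upward and 2 downward, and their median log2 ratio was -0.49. Rbl2 (p130), the pocket protein of resting cells, read 2285 on the knockout array and 930.6 on the wild-type array, 2.46-fold higher by its brightest probe set and with a log2 ratio of 1.07 by the other. E2f1, an activator, read 756 and 1683 (2.23-fold lower), and E2f8, a late repressor that E2F itself induces, 965 and 3020 (3.13-fold lower).

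**Figure D4:**
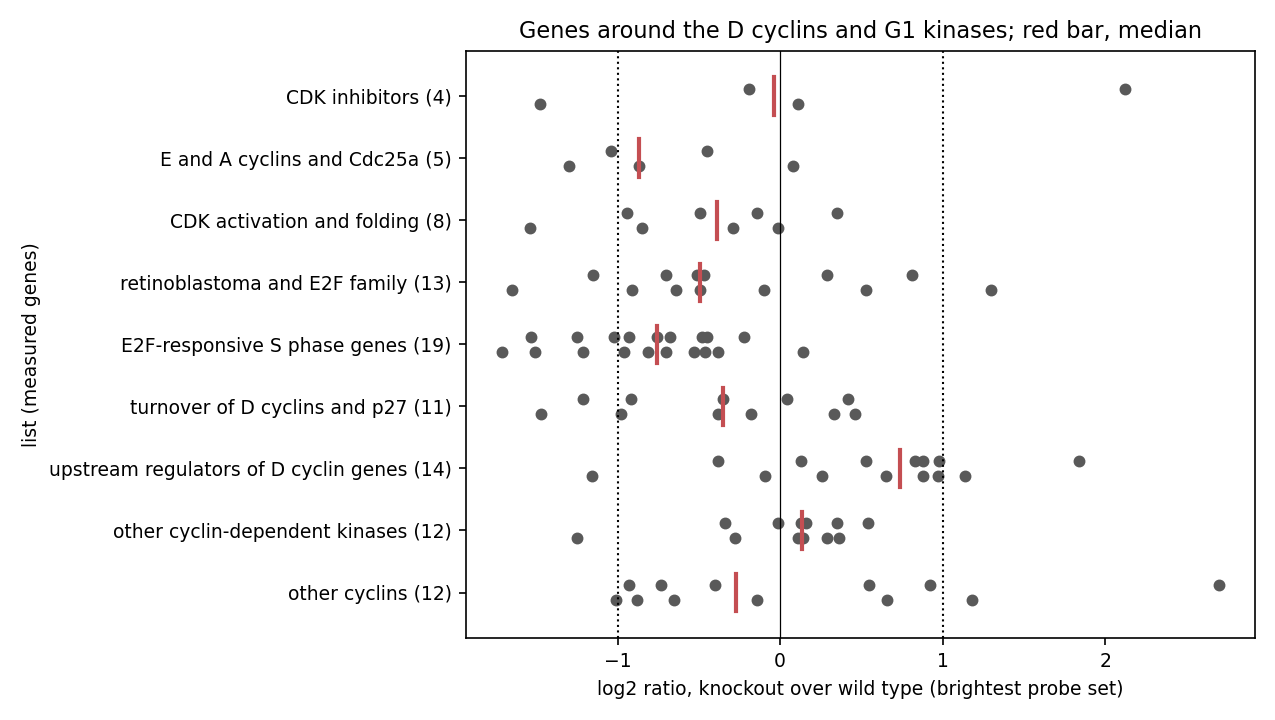
Log2 ratio, knockout over wild type, by the brightest probe set of each measured gene in 9 lists around the D cyclins and G1 kinases, with the number of measured genes in brackets; 1 point per gene, red bars mark list medians and dotted lines 2-fold. The medians of the E2F-responsive genes (-0.76) and of the cyclin E and A list (-0.87) lie farthest below 0, and that of the upstream regulators (0.74) farthest above.

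Genes known to act on D cyclin transcription had a median log2 ratio of 0.74 over 14 measured genes. Of these, 2 passed 2-fold upward (Mycn, 3.58-fold, and Myb, 49983 against 22628 or 2.21-fold) and 1, Zbtb17, downward. The Myb values are those of an _x_at probe set, and its 3 measured probe sets had log2 ratios from 0.63 to 1.14. Zbtb17 is the gene altered in the knockout, and its probes could not be placed relative to the deleted part. Notch1, whose signal is known to induce cyclin D3 in thymocytes, read 57564 and 29223 (log2 ratio 0.98), and Foxo1, which restrains D cyclin genes, 1823 and 929 (0.97) by its brightest probe set, its 3 measured probe sets ranging from 0.97 to 2.11. This list holds both activators and repressors of D cyclin genes, so its median has no single direction for them. Among 11 measured genes of D cyclin and p27 turnover, 2 passed 2-fold downward and 0 upward, and the median was -0.35 (-0.09 after quantile normalization). They were Cks1b (20539 against 56946), a cofactor for the degradation of p27, and its relative Cks2 (27895 against 64477). Both are among the very bright probe sets, whose median log2 ratio was -0.53 as deposited. The second measured probe set gave -0.94 for Cks1b and -1.49 for Cks2. Fbxo4 (log2 ratio 0.42), Ambra1 (-0.38) and Gsk3b (0.46), which act on the degradation of D cyclins, each differed by less than 2-fold.

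Genes that load or switch on the kinases, listed here with the inhibitory kinase Wee1, showed few differences of 2-fold. Wee1 read 2316 against 4448 (log2 ratio -0.94), and the list median has no single direction for kinase activity. Of 8 measured genes of CDK activation and folding, 1 passed 2-fold downward and 0 upward, and the median log2 ratio was -0.39. It was Hsp90aa1 (35254 against 102237), a chaperone that acts with Cdc37 on Cdk4, and its 4 probe sets ranged from -1.54 to -0.35. Its brightest probe set is among the very bright ones, whose median was -0.53 as deposited. Of 12 measured other cyclin-dependent kinases, 1 passed 2-fold downward, the mitotic kinase Cdk1 (3754 against 8927, 2.38-fold), and 0 upward; the median was 0.13. Of 12 measured other cyclins, 2 were at least 2-fold higher, Ccng1 (6.51-fold) and Ccnt1 (2.27-fold), and 1, Ccng2, was 2.02-fold lower. The second measured probe set gave a log2 ratio of 0.28 for Ccnt1 and of -0.36 for Ccng2; the list median was -0.27, and -0.04 after quantile normalization. No gene is named as sharing the pattern of a member, since with 2 arrays a pattern is a single ratio.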

How the data were processed

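Total RNA was amplified, labelled with biotin and hybridised, 1 array per genotype, per the labels' protocols. The authors deposited 1 signal intensity per probe set on a linear scale; the submitters' processing notes name GCOS 1.4 without settings. The 2 arrays share a trimmed mean of 1000 (2% cut from either end), the mark of a scaling done before deposit. Of 45101 probe sets, 64 controls were left out. Names came from the platform's annotation table (34945 probe sets with 1 symbol, 34741 of them updated by gene identifier from RefSeq); genes other than the 6 were read by their brightest probe set and called measured when its mean exceeded the floor.

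The members and lists were chosen with earlier results of these data known. The rule for names was all 6 genes with every probe set, the measured inhibitors and cyclins E and A, and up to 2 highest and 2 lowest genes past 2-fold of each other list; further genes were named after their values were seen. Alternatives were the floor, median centring, quantile and loess normalization, and the probe set that reads a gene. The number of arrays limits the precision. The call rule and normalizations were tested on simulated data, with Python 3.11.15, pandas 2.3.3 and statsmodels 0.14.6.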

Additional observations from a re-analysis of the deposited data

How the results depend on the processing

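Of 60 values recomputed for the 6 genes and the counts of 2-fold probe sets, 53 stayed within the SD of 0.57 between probe sets of a gene or, for counts, within 1.5 times. The other 7 came from the floor and from the probe set used. Many of the 53 could not move, so their count does not measure stability. Every floor lies below the brightest probe sets of Ccnd2, Ccnd3, Cdk2, Cdk4 and Cdk6. Median centring shifts all ratios by the same 0.04. Ccnd1 and Cdk2 have 1 measured probe set, which is also their mean. For Ccnd1, Ccnd2, Ccnd3 and Cdk6 the brightest probe set already has no shared-sequence ending. With the floor at the lower quartile (119) or with no floor, the Ccnd1 log2 ratio went from -1.15 to -2.45 in both cases, and 7 probe sets in place of 4 passed 2-fold upward. Quantile and loess normalization each gave 6. With the floor at the 60th percentile (550), 0 in place of 1 passed 2-fold downward, which removes the Ccnd1 call. The mean of its probe sets gave Ccnd3 a log2 ratio of 0.67 in place of -0.50, and the probe set without a shared-sequence ending gave Cdk2 0.77 in place of -0.15. The Ccnd2 log2 ratio ranged from 0.88 to 1.73 over 8 alternatives, past 2-fold in 7 of them. Those 7 all read its brightest probe set, whose signals lie far above every floor used, so the floor settings could not change it. The mean of all Ccnd2 probe sets gave 0.88, under 2-fold. Cdk4 ranged from -0.91 to -0.25 and Cdk6 from 0.07 to 0.56. No detection calls were used, so signals near the floor may be background. No paired analysis was possible because each genotype has 1 array and the labels share no replicate number.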
